A study of Danio rerio with 20 samples.

Results

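Among the 10 libraries from lesioned zebrafish spinal cord, 4 held read counts of mki67 and 6 held none, and the expression of all other genes was compared between these sides. The rule was a count of 1 or more for mki67 (ENSDARG00000091150; GRCz10 chromosome 12, 10328774 to 10343439), the gene of the Ki-67 protein that coats mitotic chromosomes. The 4 libraries with mki67 carry the title ends A07, A08, A09 and B09, and the 6 without carry A10, A11, A12, B10, B11 and B12, of 20 libraries in the whole series. The counts of mki67 were 122 in A07, 486 in A08, 187 in A09 and 653 in B09, so that any minimum from 1 to 122 counts makes the same division. The sides were thus chosen by these measured mki67 counts, which are given as a description.

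All libraries came from adult fish of genotype Tg(olig2:eGFP), which carry green fluorescent protein under the control of olig2, a transcription factor gene of the oligodendrocyte and motor neuron lineages. The 10 lesion libraries came from fish 7 days after the spinal cord was transected 5 mm caudal to the brainstem, and the 10 sham libraries from fish treated in the same way with the cord left intact. Pieces of about 0.5 mm from 9 cords were used per group and dissociated, and living reporter-positive cells were sorted, which the labels call oligodendrocyte progenitor cells (OPCs). Since the cords of a group were collected together, its libraries may hold cells of the same 9 fish, and every p-value here reflects the scatter among libraries, part or all of which could be technical. How many cells each library holds, which kit made it and whether reads were tagged by molecule are not stated in the labels.

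The title numbers follow the same division: all 4 libraries with mki67 have title columns 7 to 9, and all 6 without have title columns 10 to 12. What a title column stands for is not stated in the labels, and mki67 and the title column cannot be told apart. In size and make-up the sides overlapped. Totals were 7371761 to 9196227 counts in the libraries with mki67 and 7650994 to 8997465 in those without. Detected genes numbered 14778.5 ± 705 (mean ± SD, n = 4) with mki67 and 14963.7 ± 1251 (n = 6) without, and the share of mitochondrial counts was 2.47 ± 0.306% with mki67 and 2.57 ± 0.120% without. Of 6 such measures none passed an exact two-sided permutation test over the 210 divisions of 10 libraries into 4 and 6 (lowest p = 0.4, adjusted p = 0.829; the smallest p possible is 0.00952). Libraries A10, A11 and A12 stood apart by resembling each other (Spearman's rho over 22467 genes 0.862 to 0.930). Values without them are given for the number of calls and for some named genes, not for each gene called.

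A dividing cell first copies its DNA, with the polymerase clamp PCNA, the MCM helicase and the enzymes that make deoxynucleotides, and then condenses and separates its chromosomes with cyclin-dependent kinase 1, topoisomerase II, condensins, kinesins and the kinetochore. Transcripts of the second group build up late in the cycle and are destroyed or shut off after division. In the zebrafish cord, olig2-expressing cells include oligodendrocyte progenitors and progenitors of motor neurons, and Delta and Jagged ligands acting on Notch receptors set which progenitors leave the cycle to become neurons. Levels are given as CPM, the count of a gene relative to its library's total after TMM scaling (trimmed mean of M values). Symbols are printed as the name table gives them, many in capitals.

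Genes of mitosis lay far above in the libraries with mki67. The mki67 counts chose the sides, so this is a description. No other list examined had more than 1 gene past the test. That number does not rank the lists, since many mitosis genes entered the test through the side with mki67. The summed level of 65 mitosis genes, a list that does not contain mki67, was 1738 CPM in A07, 1258 in A08, 2397 in A09 and 3195 in B09, against 287 to 391 CPM in the 6 libraries without mki67. The sides did not overlap. The sham libraries ran from 187 to 1033 CPM. In bulk samples, fewer cells of a kind and less RNA per cell cannot be told apart, here and in all that follows.

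**Figure D1:**
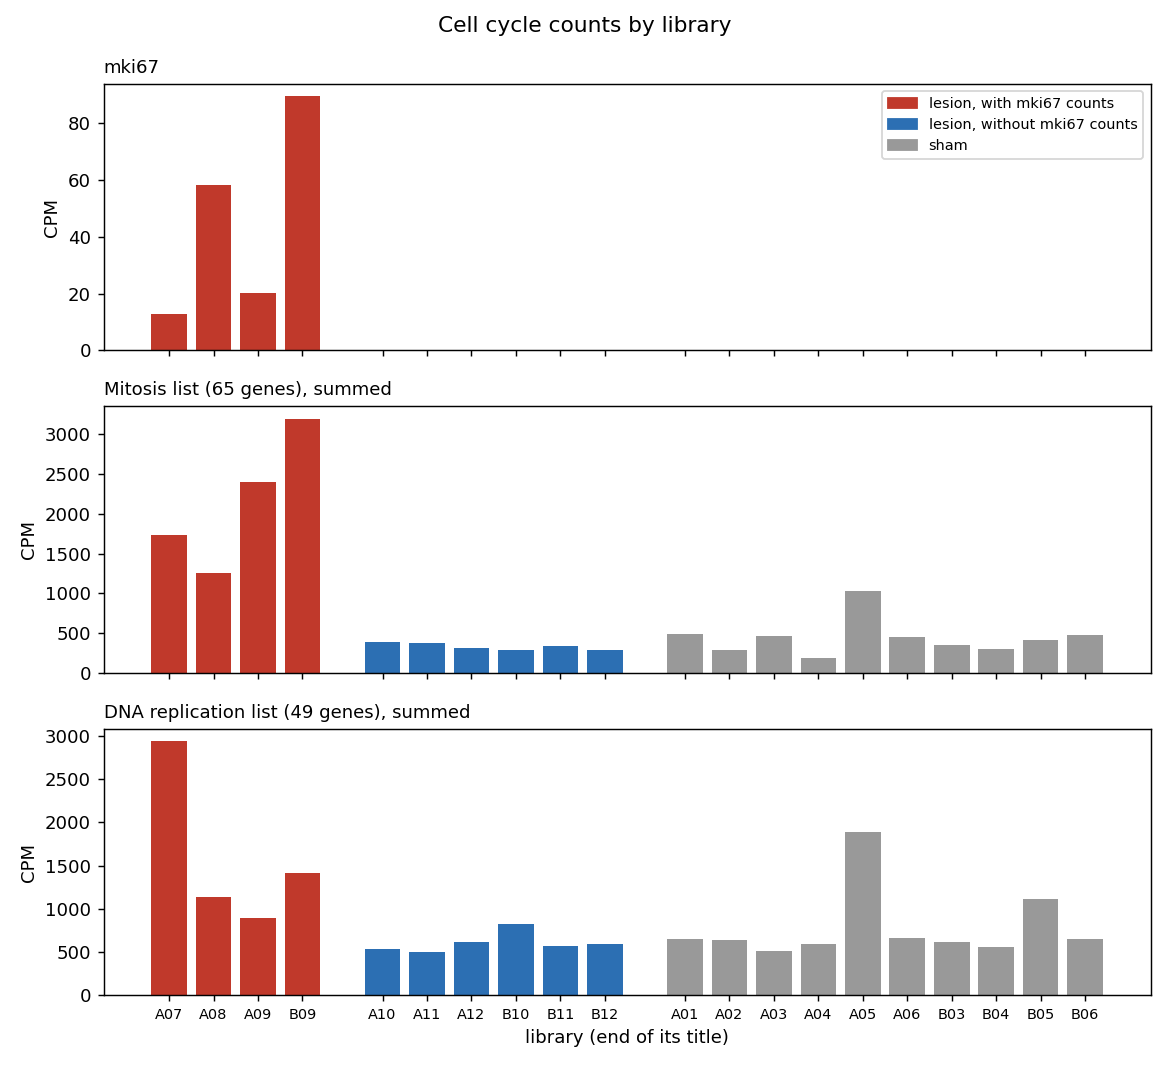
Level in CPM (vertical axes, linear) of mki67 and the summed levels of the 65 mitosis and 49 DNA replication genes in each of the 20 libraries, with mki67 in red, without in blue and sham in grey; each bar is 1 library. The mitosis sum is 1258 to 3195 CPM in the 4 red libraries and 287 to 391 CPM in the 6 blue ones, and sham library A05 reaches 1033 CPM with no mki67 count.

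Across all genes, edgeR's quasi-likelihood test with Benjamini-Hochberg adjustment called 27 of 12803 genes higher (0.211%) and 1 lower (0.00781%) in the libraries with mki67 at an adjusted p under 0.05, with mki67 left out of the fit. The mki67 counts chose these sides, so the calls on genes of the lists for G1 to S control, DNA replication, mitosis and chromatin are a description and no p is given for them. Of the 27, 13 were in the mitosis list, 1 was in a list of chromatin and histone genes, and 0 were among the 42 tested DNA replication genes. All 27 had counts in each of the 4 libraries with mki67, 16 had none in the 6 others, and 24 had 3 or fewer there. A gene with counts on 1 side alone passed the filter on low counts through that side, as did 25 of the 46 tested mitosis genes, which had counts in under 3 of the 6 libraries without mki67. Over all genes tested, 498 had an unadjusted p under 0.05, 217 of them higher, and the median log2 fold change was -0.02. The 498 are a share of the 12803 below 0.05, the share that such a threshold passes on average with no difference. The log2 fold change was positive in 6257 of the 12803. The count of genes called higher was 7 without B09 and 15 without A08, and 15 without A10, A11 and A12, of which 9 were among the 27.

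The kinetochore and spindle genes showed the division in its plainest form. TTK, the kinase of the spindle checkpoint, was counted 350, 275, 495 and 242 times in A07, A08, A09 and B09, and not once in the 6 other lesion libraries or in the 10 sham libraries. Its mean of 39.1 ± 9.68 CPM (SD, n = 4) is at least 106-fold higher than the floor of 3 counts per library. The kinetochore gene ndc80 was at 47.2, 25.1, 41.1 and 78.4 CPM in A07, A08, A09 and B09 and had no count in the 6 libraries without mki67. CENPF, a kinetochore protein of late interphase and mitosis, was at 33.5, 4.78, 19.0 and 49.7 CPM with mki67, against none without and none in sham. The motor kif11, which pushes the spindle poles apart, was at 10.7, 24.5, 64.7 and 162 CPM in the same order, again with none in the 6 others. TPX2, which builds spindle microtubules, was at 61.8, 20.2, 41.1 and 114 CPM with mki67, against 1 count in the 6 without, in A10. Each of these genes was present in every library with mki67. The midzone protein PRC1 (ENSDARG00000005993) followed them, with 136 to 812 counts in each of the 4 and 0 in the 16 other libraries.

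TOP2A (chromosome 12, 10668469 to 10701717), the topoisomerase that untangles sister chromosomes, was at 112, 32.6, 105 and 132 CPM in A07, A08, A09 and B09. It had 0 counts in all 6 libraries without mki67, which puts it at least 259-fold higher with mki67 against the floor of 3 counts per library. Its sham libraries were at 0 to 51.2 CPM, the highest in A05. The condensin genes NCAPG and SMC2 were called as well. NCAPG was at 9.91 to 62.7 CPM with mki67, against no count without, and SMC2 at 6.57 to 71.2 CPM with mki67, against 1 count in 1 library without. NCAPH was at 58.5, 31.8, 28.8 and 17.4 CPM in A07, A08, A09 and B09, against 1.02 CPM in A10 and none in the 5 others without mki67. Another condensin subunit, SMC4, was counted in all 20 libraries, at 19.7 to 49.1 CPM with mki67 and 15.7 to 62.3 CPM without.

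The kinases that drive entry into mitosis also had counts in libraries without mki67, up to 19.5 CPM for CDK1 in A10. CDK1, the kinase that starts mitosis, was at 62.6, 36.2, 75.6 and 142 CPM in A07, A08, A09 and B09, against 19.5 CPM in A10 and 0.131 to 0.870 CPM in the 5 other libraries without mki67. Its cyclins lay on the same side. CCNA2 (cyclin A2) was at 65.3, 61.0, 69.6 and 111 CPM with mki67, against 7.43 CPM in B11, 13.3 CPM in B12 and none in the 4 others. CCNB1 (cyclin B1) was at 34.1 to 76.2 CPM with mki67 and 0 to 5.59 CPM without. The polo kinase plk1 was at 34.1, 21.2, 123 and 91.5 CPM with mki67, against 12.2 CPM in A12 and at most 1.23 CPM in the 5 others, and it had no sham count. AURKB, the kinase of the chromosome passenger complex, averaged 28.4 ± 9.38 CPM (SD, n = 4) with mki67 and 0.203 ± 0.148 CPM (n = 6) without, where it had 0 to 3 counts per library. KPNA2, a nuclear import receptor and the mitosis gene with the most counts in the libraries with mki67, was at 67.9, 80.5, 390 and 343 CPM with mki67, against 7.98 CPM in B10 and at most 0.621 CPM in the others. For all of these the lowest library with mki67 lay above the highest without.

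Of the 46 tested mitosis genes, 35 lay above every library without mki67 in every library with it, against 153 of all 12803 tested genes (1.2%). Of the 46, 25 had counts in under 3 of the 6 libraries without mki67 and entered the test through the other side. The contrast is thus partly set by the filter. In each of the 4 libraries with mki67, 51 to 54 of the 58 mitosis genes with 100 or more lesion counts had at least 5 counts, against 11 to 15 in the libraries without and 5 to 20 in sham. The 58 were chosen by their lesion counts, and in each library without mki67 33 to 41 of them had no count. Many thus reached 100 counts through the side with mki67, so this contrast is partly set by the choice. Some mitosis genes lay at overlapping levels. WEE1, an inhibitor of CDK1, averaged 108 ± 26.2 CPM with mki67 and 106 ± 23.5 CPM without, and CKAP5, a microtubule polymerase, 129 ± 19.8 CPM with and 108 ± 38.1 CPM without (SD, n = 4 and 6).

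In their summed levels, DNA replication genes separated the sides less than mitosis genes. None of the 42 tested was called, where 0.211% of all tested genes were called higher and 0.00781% lower. That count does not rank the lists. Of the 42, 37 had a positive log2 fold change, with a median of 1.51 against -0.02 over all genes. The 49 genes summed to 2938 CPM in A07, 1134 in A08, 899 in A09 and 1410 in B09, against 499 to 825 CPM without mki67 and 516 to 1884 CPM in sham. The sums did not overlap between the lesion sides, although A09 lay only a little above B10. PCNA, the sliding clamp, was at 605, 338, 182 and 252 CPM in A07, A08, A09 and B09, against 68.5 to 166 CPM without mki67. RRM1, the large subunit of ribonucleotide reductase, was at 113, 68.5, 23.8 and 37.6 CPM with mki67 and 0 to 22.1 CPM without. These were the only 2 of the 42 tested genes with all 4 libraries above all 6, against 1.2% of all genes tested. MCM5, a helicase subunit, overlapped: it was at 119, 3.83, 44.4 and 37.4 CPM with mki67, against 35.8 CPM in B10, 29.7 CPM in B12 and at most 3.29 CPM in the 4 others. CDC6, which loads the helicase, was absent from B09 and at 74.7 CPM in A07, against 0.226 to 11.1 CPM without mki67.

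The 4 libraries with mki67 were not alike within the cycle. A07 held the highest level among the 4 for 35 of 47 replication genes with 100 or more lesion counts, while B09 held it for 32 and A09 for 16 of 58 mitosis genes. CDC45, a helicase activator, had 296 counts in A07, 62 in A08, 0 in A09 and 1 in B09, with none in the 6 libraries without mki67. CHAF1B, a chromatin assembly subunit, had 236, 23, 34 and 0 in the same order, and again none without. Among mitosis genes, kif11 and KPNA2 were lowest in A07, but NCAPH was highest there, and A07 held the highest level for 7 of the 58. The genes ndc80, CENPF, TPX2 and TOP2A were lowest in A08. The order of the 4 by mki67 (B09, A08, A09, A07) was not their order by mitosis sum (B09, A09, A07, A08): A08 had the second most mki67 and the lowest mitosis sum.

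Genes that control the step from G1 into S phase overlapped between the sides. Their 20 members summed to 454 ± 48.3 CPM (SD, n = 4) with mki67 and 462 ± 183 CPM (n = 6) without, and 0 of 14 tested were called. CCND1 (cyclin D1) was at 8.35 to 30.5 CPM with mki67 and 6.95 to 44.3 CPM without. Cell cycle exit genes and CDK inhibitors had 0 of 23 tested genes called, with a median log2 fold change of -0.22 against -0.02 over all genes. Neither count of calls is a result about these lists, since 0.211% of all tested genes were called higher and 0.00781% lower. The stress-inducible growth arrest gene GADD45G (ENSDARG00000019417) was at 331 to 438 CPM with mki67 and 438 to 954 CPM without, a log2 fold change of -0.89 ± 0.22 (SE; edgeR adjusted p = 0.269).

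TUBB2B (ENSDARG00000039522), a tubulin gene placed with the chromatin list, was called higher. It was at 201, 214, 311 and 154 CPM in A07, A08, A09 and B09, against 65.8 to 91.5 CPM in the libraries without mki67. The difference was 2.73-fold with no overlap. Another entry of that name in the list, tubb2b (ENSDARG00000098591), was not called. HMGN2, a nucleosome-binding protein, was at 452 to 935 CPM with mki67 and 202 to 413 CPM without; its levels did not overlap, but it was not called. The summed chromatin list overlapped between the sides, at 21584 ± 1057 CPM with mki67 and 22522 ± 1979 CPM without (SD, n = 4 and 6). Of its 39 tested genes 1 was called higher, where 0.211% of all genes tested were. In 6 of the 39 all 4 libraries lay above all 6, against 1.2% of all genes tested. The log2 fold change was positive in 31 of the 39, with a median of 0.33 against -0.02 over all genes.

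Of the 27 genes called higher, 13 were in none of the cell cycle lists, and several of these encode proteins of cell division, which was seen after their values. Cdca3, a mitotic entry factor, was at 54.4 to 107 CPM with mki67 and had no count in any of the other 16 libraries. The same held for gtse1, a microtubule-binding protein of G2, at 27.3 to 74.8 CPM. Sgo1, which protects cohesion at centromeres, and ESCO2, which acetylates cohesin, were called, as were cks2, a CDK subunit, prr11, and the kinesins KIF22 and kif20bb. KIF22 was at 69.5, 64.4, 33.4 and 45.2 CPM with mki67, against 0.490 to 5.73 CPM without, but sham libraries ran up to 57.3 CPM. SLC29A2, a nucleoside transporter, was at 53.2, 56.8, 3.88 and 40.1 CPM with mki67, against 1 count in each of A11 and A12 and none in the 4 others. Its summed counts differed by a ratio of 927 (95% exact interval 256 to 7661; edgeR adjusted p = 0.00746), and sham library A05 had 134 CPM. Inpp5l was at 10.8 to 26.9 CPM with mki67, against 3 counts in the 6 without, a ratio of 301 (95% exact interval 102 to 1463; edgeR adjusted p = 0.0168). Sham library A01 had 60.0 CPM of inpp5l, and the other sham libraries 0 to 20.7 CPM. SLC29A2 and inpp5l both entered the test through the side with mki67 alone, and their p is a description, not support. With edgeR neither passed without A10, A11 and A12 (adjusted p = 0.117 for SLC29A2 and 0.186 for inpp5l) or with all 20 libraries in the fit (0.740 and 0.737), and inpp5l did not pass without A08, A09 or B09 (0.0522, 0.0704 and 0.101); the direction was the same in each.

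**Figure D2:**
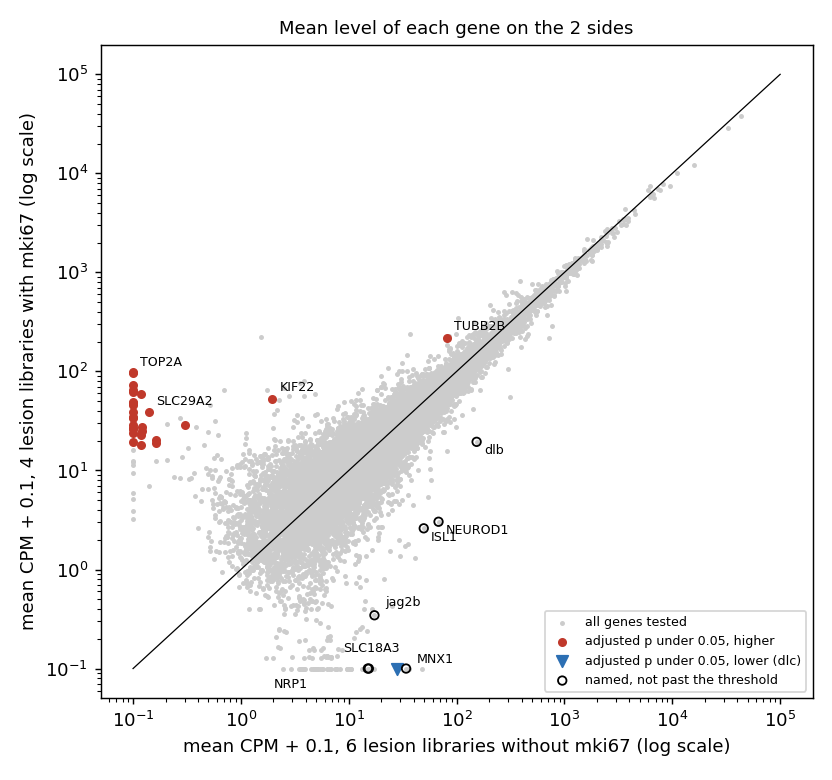
Mean CPM + 0.1 of each of the 12803 tested genes in the 4 libraries with mki67 (vertical axis) and the 6 without (horizontal axis), both log scales; red points are the 27 genes called higher, the blue triangle is dlc, and open circles are named genes that did not pass. Nearly all red points sit at the left edge, at or near 0 in the libraries without mki67, and the well-expressed genes follow the line of equal levels.

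In the other direction the single gene called was dlc (chromosome 15, 20527716 to 20532570), which encodes a Delta ligand of Notch. It had no count in the 4 libraries with mki67, against 110, 28, 232, 61, 360 and 553 counts in A10, A11, A12, B10, B11 and B12. The 6 libraries averaged 27.7 ± 25.3 CPM (SD, n = 6), so dlc was at least 78.5-fold lower with mki67 against the floor of 3 counts per library (edgeR adjusted p = 0.037). It entered the test through the side without mki67 alone, and the call is a description. With each library left out in turn the adjusted p ran from 0.0307 to 0.107 and was under 0.05 in 2 of 10 fits; the call was also lost without A10, A11 and A12 (0.122), with all 20 libraries in the fit (0.375) and with limma-voom (0.0596), while DESeq2 kept it (7.39e-11). In sham, dlc had 12 counts, all in A05.

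Of the 26 tested Notch pathway genes, 1 was called lower and 0 higher, where 0.00781% and 0.211% of all tested genes were. The 1 call was dlc, which entered the test through 1 side, so it is no result about the pathway. The median log2 fold change of the 26 was -0.07 against -0.02 over all genes. The ligand jag2b had 1, 1, 7 and 0 counts in A07, A08, A09 and B09, against 187, 128, 188, 173, 105 and 61 in A10, A11, A12, B10, B11 and B12. The sides did not overlap, but the difference did not pass (log2 fold change -6.03 ± 1.22, SE; edgeR adjusted p = 0.0924). It passed with edgeR without A09 (adjusted p = 0.0482), with DESeq2 (2.77e-09) and with limma-voom (0.0242), and not without A10, A11 and A12 (0.484). Jag2b passed the filter on low counts through the side without mki67, and A09 held most of its few counts on the other side. Its p-values are therefore a description, not support. The Delta gene dlb was at 13.0, 16.9, 47.6 and 0 CPM with mki67, against 287, 87.2, 198, 16.9, 211 and 120 CPM without, and did not pass either (edgeR adjusted p = 0.834). Another Delta gene, DLD, overlapped, at 138 to 209 CPM with mki67 and 151 to 261 CPM without. The Notch target her15.1 was at 211 to 348 CPM with mki67 and 75.1 to 362 CPM without, and her4.4 at 2.23 to 48.0 CPM with and 2.94 to 275 CPM without (edgeR adjusted p = 1.00 for both). The her4 and her15 genes have near-identical copies, so their counts are uncertain.

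No gene of the neuron list was called by edgeR, where 0.211% of all tested genes were called higher and 0.00781% lower. Of its 23 tested genes 8 had a positive log2 fold change, the median was -0.50, and 2 genes lay below all 6 in all 4 libraries with mki67, against 82 of all tested genes (0.64%). The list summed to 1725 ± 273 CPM (SD, n = 4) with mki67 and 1954 ± 743 CPM (n = 6) without, with medians of 1737 and 1729 CPM. Its genes with a count numbered 36, 30 and 33 in A10, A11 and A12, and 19, 24 and 21 in B10, B11 and B12. In the libraries with mki67 they numbered 16 to 23. ELAVL3, an RNA-binding protein of neurons, was at 174 to 300 CPM with mki67 and 189 to 264 CPM without. SNCG, a synuclein, was at 140, 120, 82.9 and 77.4 CPM with mki67, against 123 to 549 CPM without (log2 fold change -1.50 ± 0.37, SE; edgeR adjusted p = 0.267, DESeq2 adjusted p = 0.00837).

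Some genes of the neuron list with known roles in motor neurons and their formation had most of their counts without mki67. Several of them were singled out after their values were seen, and they do not stand for the list. Of its 23 tested genes 8 had a positive log2 fold change, and its sums overlapped between the sides. MNX1, the motor neuron homeobox factor, had no count with mki67, against 312, 97, 716, 0, 259 and 292 counts in A10, A11, A12, B10, B11 and B12 (edgeR adjusted p = 0.138). SLC18A3, the vesicular acetylcholine transporter, had none with mki67, against 97, 61, 404, 0, 111 and 79 without (adjusted p = 0.284, edgeR). Library B10 was the exception in both. The LIM homeobox gene ISL1 had 93 counts in A09 and none in the 3 other libraries with mki67, against 216, 176, 1334, 0, 479 and 225 without (edgeR adjusted p = 1.00), and its relative ISL2 (ENSDARG00000003971) had none with mki67, against 34 to 254 counts in A10, A11, A12 and B11 and none in B10 and B12 (edgeR adjusted p = 0.612). The neurogenic factor NEUROD1 had 109 counts in A09 and none in A07, A08 and B09, against 111 to 1471 counts in the 6 without (edgeR adjusted p = 0.842). INSM1 (ENSDARG00000091756), a factor of newly formed neurons outside the list, had none with mki67, against 876, 65, 416, 0, 350 and 118 without (edgeR adjusted p = 0.175). In the 10 sham libraries MNX1, SLC18A3, ISL1 and NEUROD1 had no count, and INSM1 had 1.

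Whether these genes passed depended on the test and on single libraries. DESeq2 called MNX1 (adjusted p = 2.21e-08), INSM1 (3.91e-08), SLC18A3 (1.91e-05) and ISL2 (0.00837), and limma-voom called none of them (adjusted p 0.347 to 0.563). With edgeR, MNX1 and INSM1 passed when B10, the library without their counts, was left out (adjusted p = 0.0121 and 0.0221), and NEUROD1 passed when A09 was left out (adjusted p = 0.0431). MNX1, SLC18A3, ISL2 and INSM1 entered the test through the side without mki67 alone, and without A10, A11 and A12 they did not pass the filter on low counts. NEUROD1 and ISL1 also passed that filter through the side without mki67, since A09 alone counted them on the other side. The p-values of all these genes are a description, not support.

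**Figure D3:**
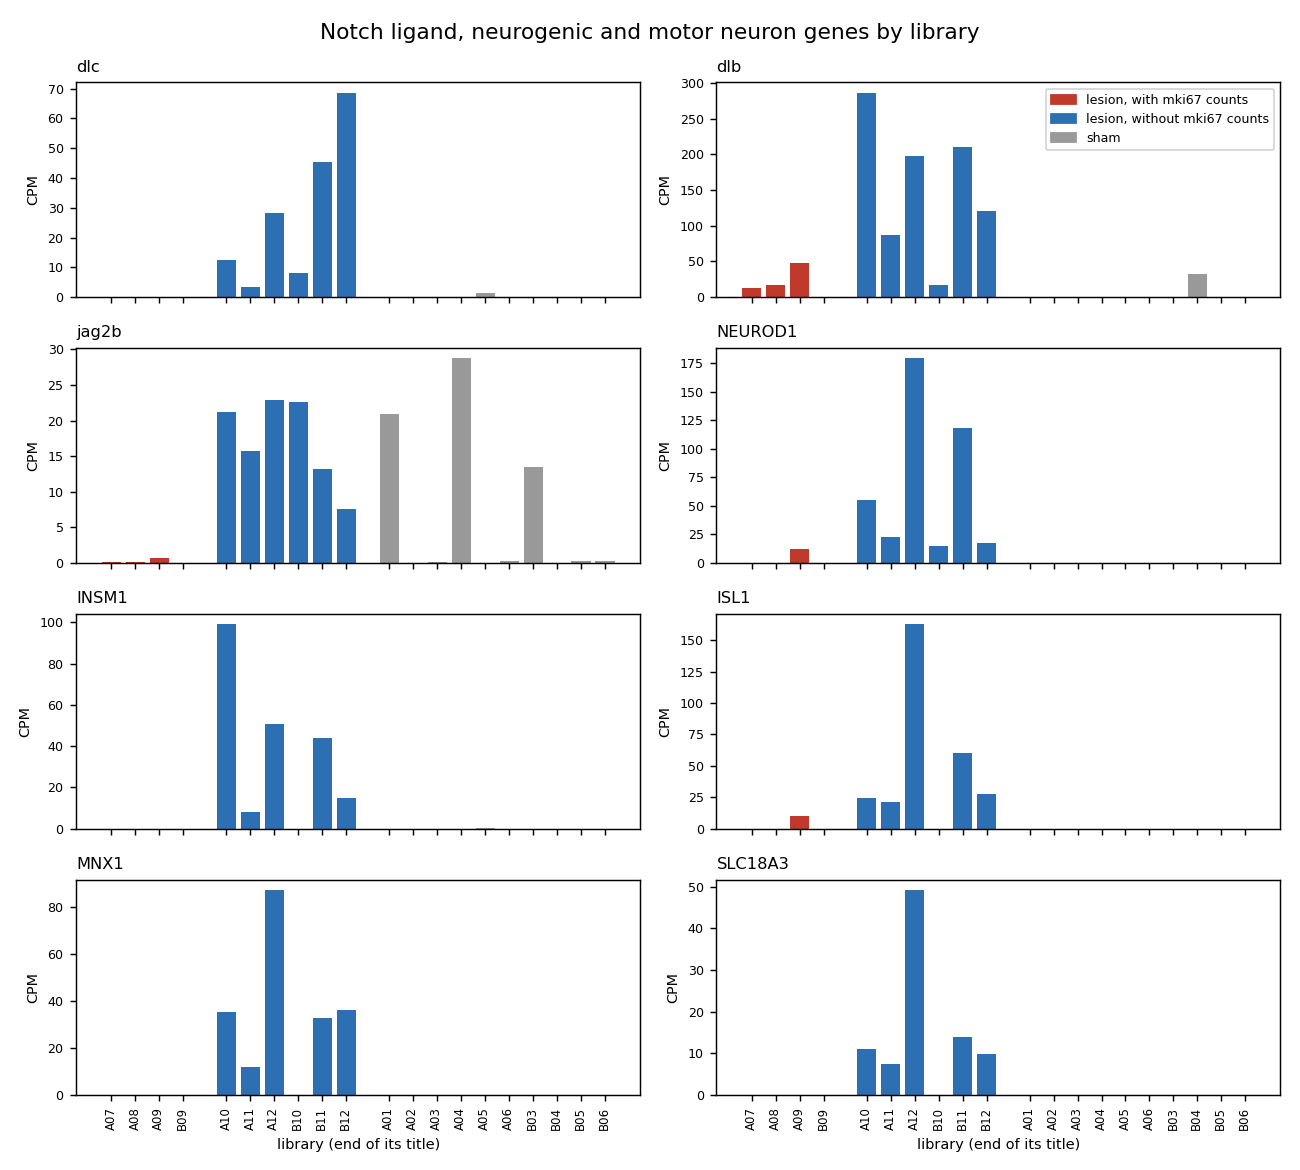
Level in CPM (vertical axes, linear) of 8 Notch ligand, neurogenic and motor neuron genes in the 20 libraries, with mki67 in red, without in blue and sham in grey; each bar is 1 library. The blue libraries hold nearly all the counts, with B10 at 0 for INSM1, ISL1, MNX1 and SLC18A3. A09 is the only red library with NEUROD1 or ISL1. The genes are picked ones, several of them chosen after their values were seen.

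With a minimum of 5 counts in every library of a side and 0 in all of the other, 27 genes besides mki67 were counted only with mki67, 10 of them in the cell cycle lists, and 6 only without. The 6 were dlc, NRP1, TRPC1, ZNHIT3, TEFM and MLYCD. NRP1, a receptor for semaphorins and VEGF, had 28 to 360 counts in each library without mki67 (edgeR adjusted p = 0.0735). TRPC1, a cation channel, had 13 to 198 (edgeR adjusted p = 0.0598, and 0.0461 without B11), ZNHIT3 34 to 60 (adjusted p = 0.0755), TEFM, a mitochondrial transcription factor, 20 to 59 (adjusted p = 0.0966), and MLYCD, malonyl-CoA decarboxylase, 6 to 68, too few to be tested. NRP1, TRPC1, ZNHIT3 and TEFM passed with DESeq2 (adjusted p = 3.52e-08, 1.09e-08, 5.75e-06 and 0.000188) and with limma-voom (0.0210, 0.0198, 0.0114 and 0.0243), but with edgeR the adjusted p was 0.204, 0.381, 0.346 and 0.355 without A10, A11 and A12. These genes were picked for having counts only on the side without mki67, so each p given for them is a description, not support. All 6 genes had counts in sham. Without A10, A11 and A12 the count was 90 genes only with mki67 and 8 only without. The main rule asks for counts in all 4 libraries with mki67 but in all 6 without, so its counts for the sides are not directly comparable. With 5 or more counts in at least 3 of the 4 or 5 of the 6 libraries, they were 66 and 26.

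Lineage markers overlapped between the sides. OLIG2, the reporter's gene, was at 4863 to 8132 CPM with mki67 and 6115 to 9255 CPM without, and the oligodendrocyte lineage factor SOX10 at 550 to 674 CPM with and 557 to 770 CPM without. PDGFRA, the receptor that defines oligodendrocyte progenitors in mammals, had 2 counts in A09 and none in the 9 other lesion libraries. The progenitor list had 0 of 27 tested genes called and the myelin list 0 of 22, which is no result about these lists, since 0.211% of all genes were called higher and 0.00781% lower. In the myelin list 2 of the 22 had a positive log2 fold change, with a median of -0.19 against -0.02 over all genes. Myelin basic protein gene mbpa was at 9499 to 14856 CPM with mki67 and 12947 to 21839 CPM without, a log2 fold change of -0.38 ± 0.17 (SE; edgeR adjusted p = 1.00).

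Marker lists of the other cell types that such a sort could hold had no called gene either, again at the share over all genes. The microglia and macrophage list summed to 5106 to 9139 CPM with mki67 and 6269 to 8900 CPM without, the endothelial list to 119 to 233 CPM with and 52.3 to 193 CPM without, and the ependymal and cilia list to 173 to 701 CPM with and 130 to 453 CPM without. Over all genes tested, 6257 of 12803 had a positive log2 fold change, with a median of -0.02. In the ependymal and cilia list 17 of 22 tested genes did, with a median of 0.91. In the endothelial list 7 of 9 did, with a median of 0.998, and in the microglia and macrophage list 3 of 8, with a median of -0.26. The radial glia list had 0 of 32 tested genes called and 16 with a positive log2 fold change. Its member SLC1A3 (ENSDARG00000104431), a glutamate transporter, was at 63.3 to 109 CPM with mki67 and 80.3 to 187 CPM without (edgeR adjusted p = 1.00). Growth and signalling lists had no call, at that same share: 0 of 53 ribosome biogenesis genes, 0 of 38 inflammation and JAK-STAT genes and 0 of 51 immediate early and stress genes. In the inflammation and JAK-STAT list 12 of the 38 had a positive log2 fold change, with a median of -0.21. JAK1, a cytokine receptor kinase, went the other way, at 135 to 290 CPM with mki67 and 90.1 to 150 CPM without. The log2 fold change of JAK1 was 0.72 ± 0.25 (SE, edgeR adjusted p = 0.842), and 0.41 when B09 was left out.

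Over all genes the likeness of libraries within and between the sides covered overlapping ranges. Spearman's rho was 0.738 to 0.779 (median 0.763) for the 6 pairs within the side with mki67, 0.763 to 0.930 (median 0.785) for the 15 pairs within the side without, and 0.731 to 0.803 (median 0.760) for the 24 pairs between the sides. The pairs share libraries, and the value is a description. The library pair that differed least in a chi-square comparison of counts was A08, with mki67, and A10, without. It still had a chi-square of 64.0 per degree of freedom, followed by A10 and A11 at 64.2, so no 2 libraries agreed within sampling noise. By Spearman's rho the pair most alike was A11 and A12 (0.930), while A08 and A10 were at 0.798, so the measures ranked the pairs differently.

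**Figure D4:**
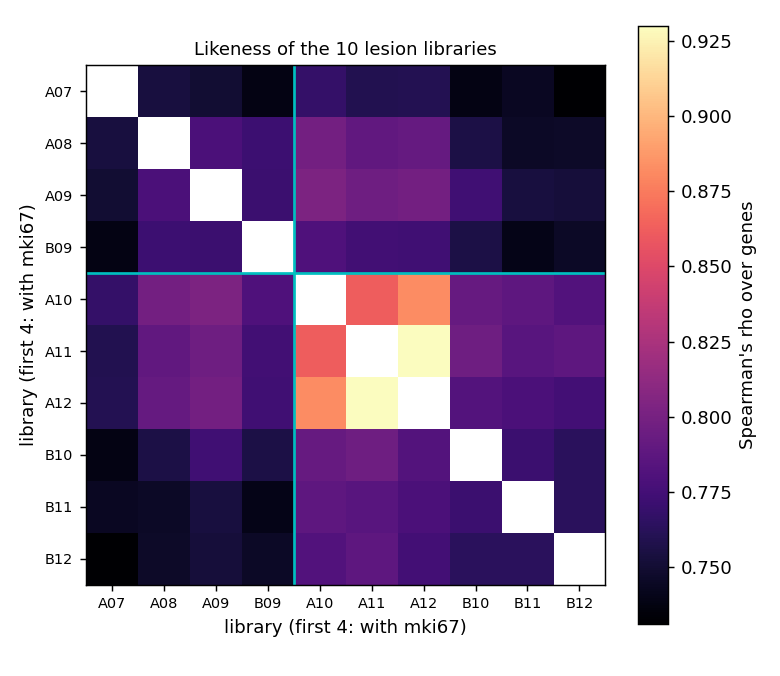
Spearman's rho over 22467 genes (colour scale) between the 10 lesion libraries, the 4 with mki67 first and the 6 without after the line. Within the first 4 the values are 0.738 to 0.779, between the sides 0.731 to 0.803, and the brightest block is A10, A11 and A12 at 0.862 to 0.930.

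In sham, division genes were counted without mki67. Sham library A05 had no mki67 count but 700 counts of CDK1, 429 of TOP2A, 348 of CCNA2, 702 of NCAPG and 3961 of PCNA. It also had 10 or more counts of 9 of the 27 genes called higher. Of the 27, 8 had no count in any sham library. Within the lesion group, A10 had 172 counts of CDK1 with 0 of mki67 and of TOP2A.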

How the data were processed

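The authors deposited 1 table of raw read counts per gene for 20 libraries. Per the submitters' processing notes, the tools were bcl2fastq 2.19.1, GSNAP and featureCounts 1.6.2, with build GRCz10. The counting command kept per the file headers used the genes of Ensembl release 87, a minimum mapping quality of 1 and strand setting 0. Strand was therefore ignored, so a gene and an overlapping partner cannot be told apart, and near-identical copies may share reads.

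Of 32358 features, 92 spike-ins (2 counts in all) were left out. Symbols came from a name table covering 26433 of 32266 genes. Columns were matched to samples by title, and lists to genes by symbol (43 of 921 unmatched). The libraries, lists and members were chosen with earlier results of these data known.

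The 10 lesion libraries were compared with edgeR 4.0.16 in R 4.3.3: filterByExpr with a minimum count of 10, TMM, a quasi-likelihood F test with the side as its only term, and Benjamini-Hochberg adjustment over 12803 genes, two-sided. Each standard error is the size of the log2 fold change over the square root of its F. CPM were scaled over all 20 libraries, whose totals were 7134670 to 10264810 counts; 3 counts in a library correspond to 0.353 CPM on average with mki67 and 0.369 CPM without. Floors and intervals include counting error alone. The test was tried on simulated counts. Alternatives used DESeq2 1.42.0 and limma 3.58.1; permutation tests and figures used Python 3.11.15, scipy 1.17.1 and matplotlib 3.10.9.

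Named genes are cell cycle genes with 100 or more lesion counts, in each direction the 10 largest called changes and the 10 smallest p, up to 3 genes per other list by p, the most counted genes seen on 1 side alone, and lineage markers; the text gives part of these. Promoter sequences were not used here, so motifs were not described.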

Additional observations from a re-analysis of the deposited data

Results flagged for a closer look

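In 41 of 165 groups of libraries checked, over 55 measures and genes, the highest or lowest library lay far from the others of its group by Dixon's criterion. Chance alone gives this in about 1 in 20 groups, and many of these groups hold counts in 1 library and none in the rest, where a single count is enough. No cause was tested.

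Among libraries with mki67, A09 was the only one with NEUROD1 (11.7 CPM) and ISL1 (10.0 CPM) and stood above the others for jag2b (0.754 CPM), and A07 stood above them for CHAF1B (25.1 CPM).

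Among libraries without mki67, A10 stood apart for CDK1 (19.5 CPM) and TPX2 (0.113 CPM, 1 count), A12 for plk1 (12.2 CPM), ISL1 (163 CPM) and SLC18A3 (49.2 CPM), B10 for KPNA2 (7.98 CPM) and her4.4 (275 CPM), B11 for NRP1 (45.4 CPM), and B12 for mbpa (21839 CPM).

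Among sham libraries, A05 stood above the rest for the mitosis sum (1033 CPM), the DNA replication sum (1884 CPM), PCNA (473 CPM), MCM5 (45.3 CPM), CDK1 (83.6 CPM), CCNA2 (41.6 CPM), TOP2A (51.2 CPM), AURKB (10.99 CPM), SLC29A2 (134 CPM), dlc (1.43 CPM), her4.4 (14.0 CPM) and INSM1 (0.119 CPM). Sham B05 stood apart for RRM1 (80.3 CPM), CCNB1 (13.9 CPM), kif11 (0.111 CPM), ISL2 (0.111 CPM), mbpa (19952 CPM, the lowest) and the share of ribosomal protein counts (3.30%). The other sham values were 0.0946 CPM for mki67 in A02, 0.145 CPM for CDC45 in B06, 0.137 CPM for TPX2, 60.0 CPM for inpp5l and 1104 CPM for mbpb in A01, 18.3 CPM for KPNA2, 62.8 CPM for TRPC1 and 19.7 CPM for TEFM in B03, and 25.1 CPM for ZNHIT3 and 31.7 CPM for dlb in B04.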

How the results depend on the processing

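The 27 genes called higher with mki67 became 63 with DESeq2, 65 with limma-voom, 15 without A10, A11 and A12, 3 with title row A alone, 0 with row B alone (1 library against 3, the lone one assumed to vary like the others; 680 at an unadjusted p under 0.05) and 6 with all 20 libraries in the fit; leaving out 1 library gave 7 to 30. All 27 were among those of DESeq2, of limma-voom and of the fit with DESeq2 size factors, which called 27. The count stayed within 1.5 times for the other filters (23 and 29), with title row as a term (21) and with detected genes as a term (27, of which 21 shared). The count of genes called lower, 1 (dlc), became 65 with DESeq2, dlc among them, and 5 with limma-voom, dlc not among them. It was 0 to 5 when 1 library was left out, and 0 without A10, A11 and A12, with title row as a term, with either row alone or with all 20 libraries. Genes counted only with mki67 were 34 and 21 at minimums of 1 and 20 counts, and 90 without A10, A11 and A12.

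Of the 6 library measures 5 changed sign in some alternative, and the share of the 50 most abundant genes did not; none passed a test. Leaving out 1 library gave differences (with minus without) of -152628.5 to 455527 in total counts, -466 to 126 in detected genes, -482 to 112 in detected genes at equal depth, -0.224 to 0.0109 percentage points in mitochondrial share and -0.220 to 0.790 in ribosomal protein share. Without A10, A11 and A12 the differences were 912 detected genes, 856 at equal depth and -0.328 points of ribosomal protein share. The causes were not tested. For 25 named genes outside the cell cycle lists, 468 of the alternative values kept direction and side of the threshold, 25 lost the call (14 of them dlc) and 20 gained it; none changed direction. No paired analysis was possible because no label ties a library of one side to a library of the other and replicate numbers were given in accession order.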
